A study of Homo sapiens with 10 samples.

Results

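HAS3 and 9 further genes of hyaluronan synthesis, breakdown and recognition were followed in HCT116 colorectal cancer cells with and without CD276. The genes were the synthases HAS1, HAS2 and HAS3, the hyaluronidases HYAL1, HYAL2 and HYAL3, the hyaluronan-binding and depolymerizing protein CEMIP, the receptors CD44 and HMMR, and UGDH, which makes a sugar donor for the synthases. They are 10 of the 58050 gene identifiers in the expression table. HAS3 was picked because its level was already known to be lower in CD276-deficient cells. Its values in this comparison are therefore a description and carry no test. The other 9 genes were picked by their role, though with earlier results of these data known. HCT116 is an established human colon carcinoma line that naturally carries CD276, an immune checkpoint molecule of the B7 family. HCT116-WT cells were compared with HCT116-CD276KO cells, which had received Cas9 protein with a guide RNA against CD276 and were sorted and expanded from 1 single cell clone. A scrambled guide is described as the control of the editing, but the labels do not say whether the sequenced HCT116-WT cultures had received it. Each group had 5 cultures, taken as biological replicates, and a comparison of them therefore sets the parental line against this clone.

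Hyaluronan is a long unsulfated sugar chain of alternating glucuronic acid and N-acetylglucosamine. Unlike other glycosaminoglycans, it is not built on a core protein in the Golgi: synthases in the plasma membrane join the activated sugars, taken from the cytosol, and push the growing chain out of the cell. The chain is cut by hyaluronidases at the cell surface and in lysosomes, and cells hold and sense it mainly through CD44, an adhesion receptor of epithelial and carcinoma cells.

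Levels were read as TPM (transcript abundance as a share of all transcripts of a library), with transcript length corrected for, so that levels of different genes can be set beside each other. Differences are given as log2 fold changes, HCT116-CD276KO minus HCT116-WT on log2(TPM + 1), on which the change of low genes is understated. Genes under a mean of 1 TPM were left out, and of the 13581 remaining, 662 had an adjusted p-value under 0.05 in limma with Benjamini-Hochberg adjustment (4.87%). Of these, 556 were lower in HCT116-CD276KO cells (4.09%) and 106 were higher (0.781%), and the median log2 fold change of all tested genes was -0.09. The targeted gene CD276 (hg38 chromosome 15, 73683966 to 73714514) lay between 38.1 and 53.6 TPM in HCT116-WT cells and between 4.4 and 7.42 TPM in HCT116-CD276KO cells. Of 8 colonic epithelial markers, 6 had a mean of at least 1 TPM, CDX1 was listed at 0 and VIL1 lay under 1 TPM. Their summed level was 4181 to 4954 TPM in HCT116-WT libraries and 3317 to 3783 TPM in HCT116-CD276KO libraries. Of the 6, 5 were called lower in limma (EPCAM, CDH1, KRT8, KRT18 and KRT19, adjusted p from 0.00263 to 0.0486), and CDX2 had a log2 fold change of 0.07 (adjusted p = 0.786). The part of these differences in the results below was not tested. Among markers of other cells, 1 of 6 for fibroblasts (COL1A1), 1 of 6 for leukocytes (CD68) and 0 of 4 for endothelium reached a mean of 1 TPM, and LUM was listed at 0. In bulk RNA, fewer cells that hold a transcript and less of it in each cell cannot be told apart.

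Libraries also differed by the length and base composition of the transcripts they favoured. Across 13472 genes, the deviation of a gene from its mean over the 10 libraries had a Spearman correlation with transcript length of -0.482 and -0.443 in HCT116-CD276KO replicates 2 and 3, against -0.062 to 0.292 in the other 3 replicates and -0.09 to 0.393 in HCT116-WT. The correlation with GC content was highest in HCT116-WT replicate 3 (0.596) and HCT116-CD276KO replicate 2 (0.471). Genes are not independent replicates, and these values only describe the libraries. Values after a smooth correction for both properties are therefore given beside the results that they touch.

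HAS3 (ENSG00000103044, hg38 chromosome 16, 69105653 to 69118719, plus strand) was the synthase of these cells, and its transcript was lower in the CD276-deficient clone in every library. HAS3 makes hyaluronan chains at the plasma membrane and is the family member typical of many epithelia. Its level was 76.98, 66.94, 77.94, 66.13 and 73.21 TPM in HCT116-WT replicates 1 to 5. It was 20.83, 16.66, 14.15, 19.49 and 22.6 TPM in HCT116-CD276KO replicates 1 to 5. The groups were far apart: the highest HCT116-CD276KO library lay below the lowest HCT116-WT library, with replicates 2 and 3 the lowest of the clone. The mean of 18.7 ± 3.36 TPM in the clone was 25.9% of the HCT116-WT mean of 72.2 ± 5.51 TPM (SD, n = 5 each). On the log2 scale the difference was -1.91 with a standard error of 0.11 and a 95% interval of -2.16 to -1.66. For a gene picked by its known difference, this interval is a description and not a test. After correction for length and GC content it was -1.78 with a standard error of 0.0744. Among the 13581 tested genes, 22 had a lower log2 fold change than HAS3 on log2(TPM + 1), which understates the change of low genes. The end of HAS3 overlaps CHTF8 on the opposite strand by 710 bases, and whether the authors counted reads by strand is not given in the sources used here. CHTF8 itself was at 192 TPM in HCT116-WT and 182 TPM in HCT116-CD276KO cells.

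The other synthases were at or near 0. HAS1, which has the weakest activity of the family in many cells, was listed at 0 in all 10 libraries. HAS2, the main synthase of fibroblasts and of the developing heart, reached 0.02 TPM in HCT116-WT replicate 1 and was listed at 0 in the other 4. In HCT116-CD276KO replicates 1 to 5 it was listed at 0.01, 0.01, 0.02, 0 and 0.03 TPM. HAS3 thus made up at least 99.859% of the summed TPM of the 3 synthases in every library, in both groups, and no rise of HAS1 or HAS2 to 1 TPM accompanied its lower level.

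**Figure D1:**
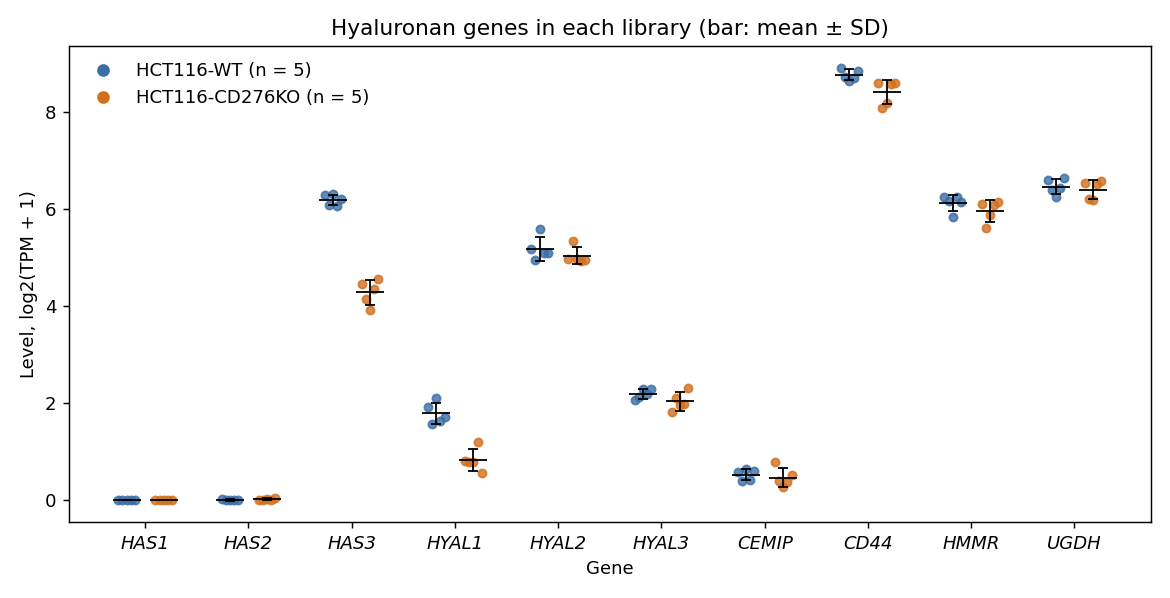
Level on log2(TPM + 1) of each of the 10 genes in the 5 HCT116-WT and 5 HCT116-CD276KO libraries, with each point 1 library and bars for the group mean and its SD. HAS3 (66.13 to 77.94 against 14.15 to 22.6 TPM), HYAL1 and CD44 show no overlap between the groups, HAS1 is at 0 in every library, and HYAL2, HYAL3, HMMR, UGDH and CEMIP overlap.

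The sequence before the start of HAS3 is shown because HAS3 and HYAL1 were the members with the largest differences. It was taken from RefSeq (GRCh38.p14) and equals hg38 there. The window is the 250 bases before the RefSeq start, on the plus strand, and it lies in an intron of longer HAS3 transcripts. Capitals mark the only match to 8 short motifs that were searched on both strands, a GC box of the SP and KLF factors (GGGCGG, here read from the opposite strand).
HAS3, chr16:69107290-69107539, plus strand: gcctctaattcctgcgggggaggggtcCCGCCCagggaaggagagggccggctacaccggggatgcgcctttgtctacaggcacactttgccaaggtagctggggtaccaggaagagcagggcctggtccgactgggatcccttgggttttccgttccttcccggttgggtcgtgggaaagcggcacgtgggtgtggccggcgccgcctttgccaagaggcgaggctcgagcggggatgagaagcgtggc
The GC box begins at position -223 counted back from the start. It is a common motif, present in 42.3% of the 27305 RefSeq promoter windows of this kind and in 69.4% of those of tested genes. HAS3 held no CCACCC box, which occurs in 30.4% of all windows and in 34.7% of those of tested genes. It also held no TGANTCA motif of AP-1, which 6.60% and 3.60% hold, in the same order. No GGAATG motif of the TEAD factors was found, which 11.9% and 9.16% hold. A CGGAAG motif of the ETS factors, which 16.8% and 29.1% hold, was not found either. The TATA box, searched as TATAAA, occurs in 11.1% and 4.88% of these windows and not here. Neither the CRE motif, at 1.77% and 3.05%, nor the GRHL motif, at 1.48% and 1.04%, was found. A match is a run of letters and was not tested as a binding site, and a missing match says nothing about the factor.

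No site like the CD276 guide was found in any of the 10 genes. The guide is shown with the PAM of its CD276 site in capitals, because the members were searched for sites like it.
CD276 guide: ttcgtgagcatccgggatttCGG
In each gene and 5000 bases on either side, 0 sites with an NGG PAM had 4 or fewer mismatches to the guide, while CD276 held 2 sites without a mismatch. The closest site had 7 mismatches in HAS3, CEMIP, CD44, HMMR and UGDH, and 8 in the others.

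Among the hyaluronidases, HYAL1 fell and the other members did not pass the test. HYAL1 (ENSG00000114378, hg38 chromosome 3, 50299890 to 50312381, minus strand) encodes the acid hyaluronidase of lysosomes, which cuts chains that have been taken up. Its level was 2.79, 1.98, 3.3, 2.1 and 2.28 TPM in HCT116-WT replicates 1 to 5. It was 0.76, 0.73, 0.72, 1.3 and 0.47 TPM in HCT116-CD276KO replicates 1 to 5. The groups did not overlap, with HCT116-CD276KO replicate 4 nearest to HCT116-WT. The means were 2.49 ± 0.548 and 0.796 ± 0.305 TPM (SD, n = 5), and HYAL1 in the clone was at 32.0% of the HCT116-WT level. The log2 fold change was -0.96 (standard error 0.1472, limma adjusted p = 0.00338), and -0.90 (adjusted p = 0.00207) after correction for length and GC content. HYAL1 is a low gene whose mean in HCT116-CD276KO cells is under the filter of 1 TPM, so it entered the test through its level in HCT116-WT cells. With all genes above 0 TPM tested, its adjusted p was 0.0108. Because 1 TPM is added before the logarithm, the fitted value understates the change: with 0.1 TPM added it was -1.57.

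The window before HYAL1 is given for comparison with that of HAS3. It holds the 213 bases on the minus strand that lie outside the untranslated exons of other transcripts, from the same RefSeq table, with 37 bases left out. Capitals mark 4 matches, of which 2 are GC boxes, at positions -71 and -59, and 2 are CCACCC boxes, at positions -151 and -46.
HYAL1, chr3:50303575-50303787, minus strand: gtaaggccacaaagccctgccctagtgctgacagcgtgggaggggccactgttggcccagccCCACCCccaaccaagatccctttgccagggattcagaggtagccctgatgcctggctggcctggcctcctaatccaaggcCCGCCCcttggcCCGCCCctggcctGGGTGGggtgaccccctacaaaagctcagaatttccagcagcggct
The windows of HAS3 and HYAL1 shared the GC box and no other motif of those searched, and 69.4% of the windows of tested genes hold that motif.

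HYAL2, the surface-anchored hyaluronidase that cuts long chains into pieces, was the highest of the 3 and did not pass the test. Its level was 35.2, 29.79, 47.39, 33.22 and 32.97 TPM in HCT116-WT replicates 1 to 5 and 30.28, 39.71, 30.3, 29.65 and 29.93 TPM in HCT116-CD276KO replicates 1 to 5. The groups overlapped, and the highest library of each group was the one with the highest GC correlation, HCT116-WT replicate 3 and HCT116-CD276KO replicate 2. The log2 fold change was -0.15 (standard error 0.1232, limma adjusted p = 0.491), and -0.04 after the correction. HYAL2 shares 2756 bases with TUSC2 on the same strand, so its reads may be split between them.

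HYAL3, a relative of HYAL1 and HYAL2 whose own activity is weak, was at 3.2, 3.38, 3.9, 3.53 and 3.89 TPM in HCT116-WT replicates 1 to 5 and, in HCT116-CD276KO replicates 1 to 5, at 2.51, 3.29, 2.88, 2.97 and 4.0 TPM. The groups overlapped, with the highest value of all in HCT116-CD276KO replicate 5, and the log2 fold change was -0.16 (standard error 0.1076, limma adjusted p = 0.393). HYAL3 shares 3004 bases with NAA80 and 88 bases with IFRD2 on its own strand, and its level is uncertain for that reason.

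The 3 hyaluronidase genes lie side by side on chromosome 3. Their shares were read within each library, with the overlaps of HYAL2 and HYAL3 named above not corrected for. HYAL1 made up 5.94 ± 0.524% of their summed TPM in HCT116-WT and 2.25 ± 0.954% in HCT116-CD276KO cells (SD, n = 5), without overlap between the groups. The sum itself was 41.8 ± 7.48 and 35.9 ± 4.39 TPM and overlapped. HYAL2 supplied most of it in both groups, 85.4 ± 0.971% and 89.0 ± 1.69%.

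CEMIP, which binds hyaluronan and promotes its depolymerization, was under the filter of 1 TPM. It was at 0.5, 0.32, 0.57, 0.33 and 0.52 TPM in HCT116-WT replicates 1 to 5 and, in HCT116-CD276KO replicates 1 to 5, at 0.72, 0.32, 0.2, 0.3 and 0.43 TPM. The groups overlapped throughout, and the difference on log2(TPM + 1) was -0.06 (exact permutation test, two-sided, p = 0.563, n = 5 per group, where the smallest possible p is 0.00794).

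The receptor CD44 was the highest of the 10 genes, and whether its difference passed the test depended on the correction for length and GC content. CD44 (ENSG00000026508, hg38 chromosome 11, 35138882 to 35232402, plus strand) encodes the transmembrane protein that anchors hyaluronan to the cell surface. Its level was 482.23, 422.53, 399.47, 414.71 and 459.2 TPM in HCT116-WT replicates 1 to 5. It was 388.1, 272.21, 291.09, 378.84 and 386.11 TPM in HCT116-CD276KO replicates 1 to 5. The groups did not overlap, but the 388.1 TPM of HCT116-CD276KO replicate 1 came close to the 399.47 TPM of HCT116-WT replicate 3, and replicates 2 and 3 of the clone stood apart from its other 3. The means were 436 ± 34.1 and 343 ± 56.8 TPM (SD, n = 5). The log2 fold change was -0.36 (standard error 0.1089, 95% interval -0.59 to -0.12, limma adjusted p = 0.0906) and did not pass. HCT116-CD276KO replicates 2 and 3 are the libraries that disfavoured long transcripts, and CD44 has a longest annotated transcript of 5431 bases. The part of transcript length in the CD44 levels of these libraries was not tested. After the correction the SD within HCT116-CD276KO on the log2 scale went from 0.248 to 0.088, and the difference was smaller and passed, at -0.19 (standard error 0.0487, adjusted p = 0.0337).

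HMMR (RHAMM), a hyaluronan-binding protein that also sits on spindle microtubules and rises in dividing cells, did not pass the test. It was at 75.01, 71.11, 55.96, 74.8 and 69.37 TPM in HCT116-WT replicates 1 to 5 and, in HCT116-CD276KO replicates 1 to 5, at 67.71, 47.55, 57.76, 66.69 and 69.65 TPM. The groups overlapped, and the lowest values were in HCT116-CD276KO replicate 2 and HCT116-WT replicate 3. The log2 fold change was -0.17 (standard error 0.1151, 95% interval -0.42 to 0.09, limma adjusted p = 0.399), and -0.10 after the correction. The ratio of CD44 to HMMR within a library was 2.66 ± 0.141 on the log2 scale in HCT116-WT and 2.47 ± 0.0780 in HCT116-CD276KO cells (SD, n = 5) and overlapped.

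UGDH (ENSG00000109814, hg38 chromosome 4, 39498755 to 39528311, minus strand), the enzyme that oxidizes UDP-glucose to the UDP-glucuronic acid used by the synthases, overlapped between the groups. It was at 95.76, 83.21, 74.95, 85.31 and 98.25 TPM in HCT116-WT replicates 1 to 5 and, in HCT116-CD276KO replicates 1 to 5, at 91.34, 72.65, 72.12, 90.81 and 94.19 TPM. HCT116-CD276KO replicates 2 and 3 were the lowest of the 10 libraries, as for CD44. The log2 fold change was -0.06 (standard error 0.1020, 95% interval -0.28 to 0.17, limma adjusted p = 0.759). The sign turned with the scaling: it was 0.04 with median-of-ratios scaling, 0.02 with quantile normalization and 0.02 after the length and GC correction.

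**Figure D2:**
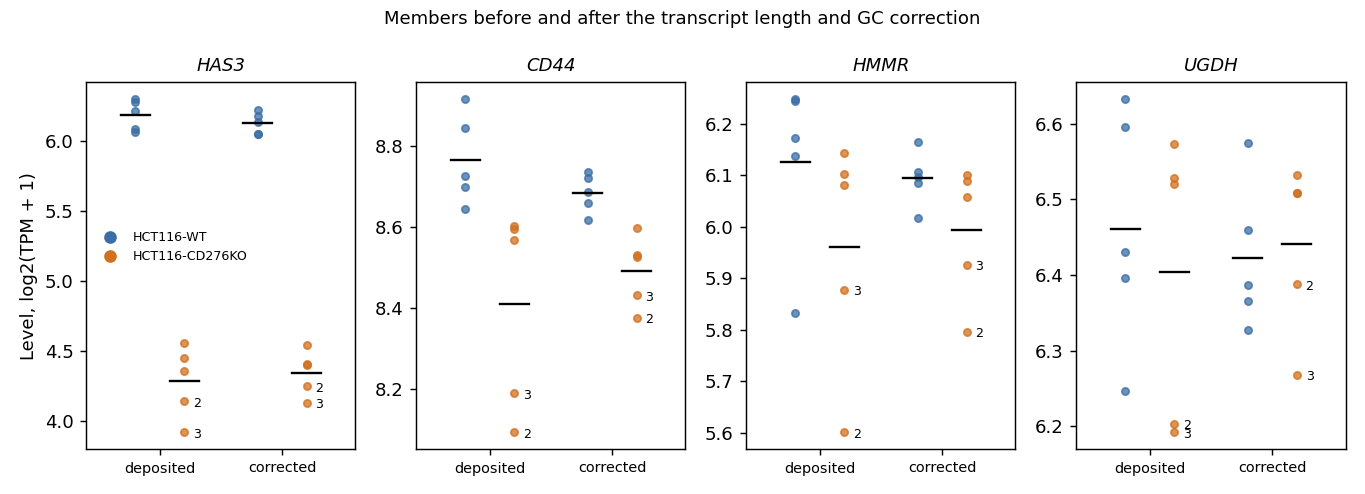
Level on log2(TPM + 1) of HAS3, CD44, HMMR and UGDH in each library, as deposited and after correction for transcript length and GC content, with bars for group means and HCT116-CD276KO replicates 2 and 3 numbered. The spread of CD44 within HCT116-CD276KO narrows from an SD of 0.248 to 0.088, and HAS3 stays apart between the groups in both versions.

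Of the 9 members other than HAS3, 6 passed the filter and 1, HYAL1, was called lower, where 4.09% of all tested genes were called lower and 0.781% higher. The groups did not overlap for 2 of them, HYAL1 and CD44, against 7.61% of all tested genes (6.19% lower and 1.42% higher). None of the 6 was both called and past 2-fold on this scale, as were 0.486% of all tested genes (0.464% lower and 0.0221% higher). With the length and GC correction 2 were called, HYAL1 and CD44, both lower, where 9.09% of all tested genes were called, 4.94% lower and 4.15% higher. As deposited, the median log2 fold change of these 6 was -0.16, beside -0.09 over all tested genes. A list of 6 genes is too short to be set apart by such counts. With HAS3, 7 of the 10 genes passed the filter, and HAS1, HAS2 and CEMIP did not.

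**Figure D3:**
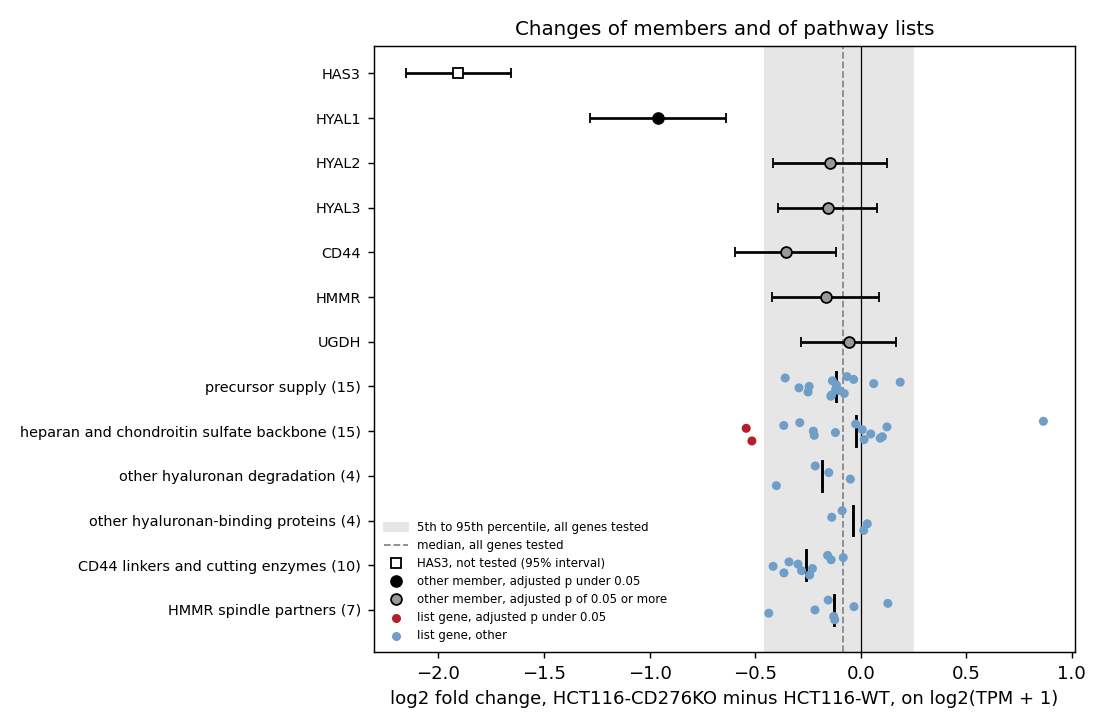
Log2 fold change, HCT116-CD276KO minus HCT116-WT on log2(TPM + 1), of the 7 members that passed the filter (symbols with 95% intervals) and of the tested genes of 6 pathway lists (points, with a bar at each list's median and the number of genes in brackets). The interval of HAS3 is a description and not a test. HAS3 at -1.91 and HYAL1 at -0.96 lie left of the grey band that holds the middle of all tested genes, CD44 at -0.36 lies inside it, and XYLT2 and EXTL3 are the only list genes called.

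The lower HAS3 level changed its place among the members. In HCT116-WT cells the order was CD44, UGDH, HAS3, HMMR, HYAL2, HYAL3, HYAL1, CEMIP, HAS2 and HAS1. The ranges over the 5 libraries overlapped for UGDH with HAS3, HAS3 with HMMR, HYAL3 with HYAL1, and HAS2 with HAS1. In HCT116-CD276KO cells HAS3 moved from place 3 to place 5, below HMMR and HYAL2, and its range did not overlap that of HYAL2, from which it had been apart in HCT116-WT cells as well. There HYAL1 overlapped CEMIP and HAS2 overlapped HAS1, while the other neighbours were apart.

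Ratios within a library leave out any factor that scales both genes alike. The log2 ratio of HAS3 to UGDH was -0.315, -0.314, 0.056, -0.367 and -0.424 in HCT116-WT replicates 1 to 5. It was -2.133, -2.125, -2.35, -2.22 and -2.059 in HCT116-CD276KO replicates 1 to 5. HAS3 was thus near UGDH in the parental cells and far below it in the clone, with means of -0.27 ± 0.190 and -2.18 ± 0.112 (SD, n = 5), a difference of -1.90. Against CD44 the log2 ratio of HAS3 went from -2.59 ± 0.131 to -4.20 ± 0.135. Against HYAL2 it changed sign, from 1.03 ± 0.189 to -0.78 ± 0.372, so that HAS3 lay above the surface hyaluronidase in HCT116-WT and below it in HCT116-CD276KO cells. All 3 ratios contain HAS3 and describe the difference for which it was chosen.

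**Figure D4:**
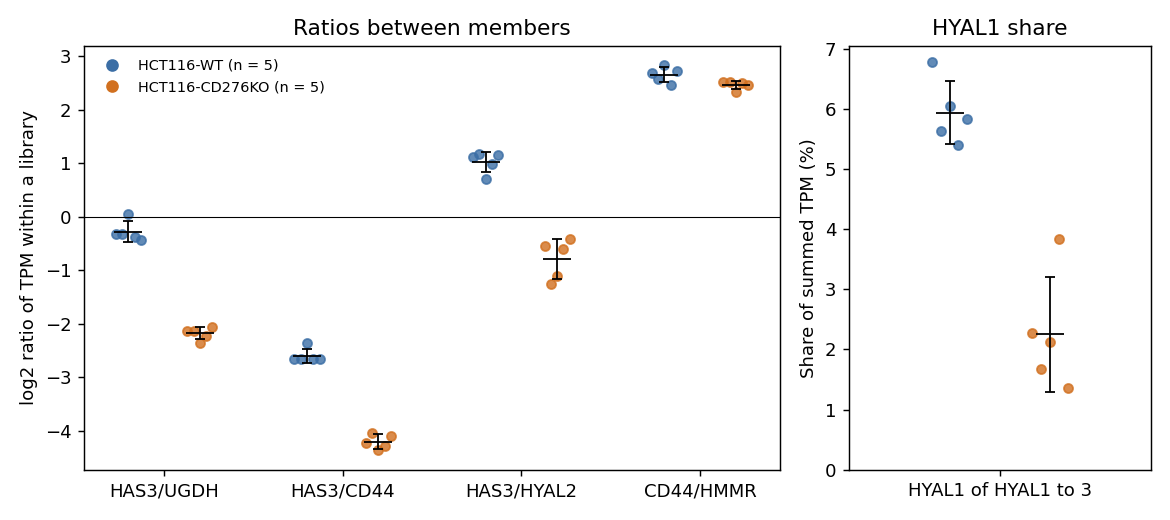
Ratios within each library, with points for the 5 libraries of a group and bars for the mean and its SD, the log2 ratios on the left and the HYAL1 share in percent on the right. The log2 ratios of HAS3 to UGDH, CD44 and HYAL2 lie apart between the groups (-0.27 against -2.18 for UGDH), as does the share of HYAL1 in the hyaluronidases, whereas the log2 ratio of CD44 to HMMR overlaps.

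The wider pathway was covered by 6 lists with 83 genes, of which 55 passed the filter. Of these, 2 were called lower and 0 higher in limma, where 4.09% and 0.781% of all tested genes were. At an unadjusted p under 0.05 there were 14 of 55, all lower, where 21.9% of all tested genes passed that limit, 17.6% of all being lower. The median log2 fold change was -0.14 as deposited and -0.02 after the length and GC correction, when 30 of the 55 lay below 0 and 3 were called lower. Over all tested genes the median was -0.09 as deposited and 0.01 after the correction, when 47% lay below 0 and 4.94% were called lower.

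The list of precursor supply covers the enzymes that make and recycle UDP-glucose and UDP-N-acetylglucosamine. It also holds the enzymes that put N-acetylglucosamine on proteins and take it off. Of 15 tested genes 0 were called in limma and 0 had an unadjusted p under 0.05, where 4.87% and 21.9% of all tested genes did. The list spanned log2 fold changes of -0.36 to 0.19 around a median of -0.12, beside -0.09 over all tested genes. GNPDA1, which turns glucosamine phosphate back towards glycolysis, had the highest level of the list, at 80.0 ± 6.82 and 72.9 ± 6.30 TPM (SD, n = 5; log2 fold change -0.13, limma adjusted p = 0.335).

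The enzymes of heparan sulfate and chondroitin sulfate draw on the same UDP-glucuronic acid but build on core proteins in the Golgi. Of 15 tested genes, 2 were called lower and 0 higher in limma, where 4.09% and 0.781% of all tested genes were. An unadjusted p under 0.05 was held by 5, all lower, where 21.9% of all tested genes had one, 17.6% of all being lower. The median was -0.02, beside -0.09 over all tested genes. XYLT2, a xylosyltransferase that starts the linker on the core protein, went from 17.9 ± 1.67 to 12.2 ± 1.34 TPM (SD, n = 5; log2 fold change -0.52, standard error 0.0901, limma adjusted p = 0.00727). EXTL3, which adds the first N-acetylglucosamine that commits a chain to heparan sulfate, went from 46.4 ± 3.96 to 32.1 ± 6.96 TPM (log2 fold change -0.54, standard error 0.1326, limma adjusted p = 0.0394). The groups did not overlap for these 2 of the 15, against 7.61% of all tested genes (6.19% lower and 1.42% higher). XYLT2 passed in every setting tried, whereas EXTL3 did not pass with all genes above 0 TPM (adjusted p = 0.0954) or when any 1 library other than HCT116-CD276KO replicates 1 and 5 was left out (adjusted p 0.0511 to 0.112). CHPF, a chondroitin polymerizing factor and the highest gene of the list, was at 156 ± 22.2 and 127 ± 15.1 TPM (log2 fold change -0.29, limma adjusted p = 0.139), and it passed after the correction for length and GC content (-0.21, adjusted p = 0.0404).

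Of the other genes of hyaluronan degradation, 4 of 6 were tested and 0 were called in limma, where 4.87% of all tested genes were. An unadjusted p under 0.05 was held by 2, both lower, where 21.9% of all tested genes had one, 17.6% of all being lower. The median was -0.18, beside -0.09 over all tested genes. SPAM1, the hyaluronidase of sperm, was listed at 0 in every library. CEMIP2, a transmembrane relative of CEMIP, was at 10.1 ± 2.34 and 7.39 ± 1.76 TPM (log2 fold change -0.40, limma adjusted p = 0.203). Both were named after their values were seen.

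Most of the other hyaluronan-binding proteins were not at a level that could be compared. Of 26, 21 were above 0 TPM in at least 1 library and 4 passed the filter. Of these 4, 0 were called in limma and 0 had an unadjusted p under 0.05, where 4.87% and 21.9% of all tested genes did. Their median was -0.04, beside -0.09 over all tested genes. C1QBP, a mitochondrial and surface protein also known as a hyaluronan-binding protein, was the highest, at 642 ± 14.4 and 657 ± 49.8 TPM (log2 fold change 0.03, limma adjusted p = 0.768). VCAN, a large matrix proteoglycan named here after its values were seen, was at 85.2 ± 8.96 and 83.3 ± 26.2 TPM (log2 fold change -0.09, limma adjusted p = 0.810). The alternative receptors LAYN, STAB2 and TLR4, also named after their values were seen, were listed at 0 in every library.

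CD44 works through proteins that tie its tail to the actin cortex and through proteases that shed it. Of 10 tested genes of this list 0 were called in limma, where 4.87% of all tested genes were. An unadjusted p under 0.05 was held by 5, all lower, where 21.9% of all tested genes had one, 17.6% of all being lower. All 10 had log2 fold changes below 0, where 68.1% of all tested genes did. The median was -0.26, beside -0.09 over all tested genes. Once length and GC content were corrected for, 7 of 10 lay below 0, where 47% of all tested genes did. The median was then -0.11, beside 0.01 over all tested genes. After the correction 0 were called in limma, where 9.09% of all tested genes were, and 4 had an unadjusted p under 0.05, all lower. Of all tested genes 25.5% had such a p then, 12.1% of all being lower. EZR (ezrin), the highest, was at 1517 ± 121 and 1287 ± 156 TPM (log2 fold change -0.24, limma adjusted p = 0.138).

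HMMR works at the spindle with TPX2, AURKA and related proteins. Of the 7 genes of this list 0 were called in limma, where 4.87% of all tested genes were. An unadjusted p under 0.05 was held by 2, both lower, where 21.9% of all tested genes had one, 17.6% of all being lower. The median was -0.13, beside -0.09 over all tested genes. DYNLL1, a dynein light chain, was the highest, at 291 ± 9.24 and 319 ± 35.2 TPM (log2 fold change 0.13, limma adjusted p = 0.321).

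The genes whose pattern was most like that of HAS3 were ranked by Pearson correlation of log2(TPM + 1) over the 10 libraries among 13580 genes. All 10 of the closest were lower in HCT116-CD276KO cells without overlap between the groups, which any gene that separates the groups shares with HAS3. KLF4, a transcription factor of epithelial differentiation, was the closest (r = 0.996) and was at 29.7 ± 1.47 and 11.2 ± 1.28 TPM (SD, n = 5). The calcium-dependent protease CAPN1 (r = 0.993) was at 286 ± 27.9 and 123 ± 14.5 TPM. The acyl-CoA synthetase ACSL5 (r = 0.990) was at 92.5 ± 4.77 and 40.0 ± 5.03 TPM. The next were the membrane protein EMP1 (0.989), CHPT1 (0.989), which makes phosphatidylcholine, the mitochondrial import component TIMM17B (0.988), the adhesion molecule ICAM1 (0.987), the neuronal calcium sensor VSNL1 (0.987), the actin-binding MISP (0.987) and ENSG00000250920 (0.986). Of the members, HYAL1 had r = 0.918 and CD44 r = 0.805, and the other tested members lay between 0.298 and 0.538.

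Within the groups the likeness was to other genes. By deviations from the group means over the same 10 libraries, the closest were KLHL42 (r = 0.996), SCARA3 (0.987), GRB2 (0.983), ZNF335 (0.982) and CASP2 (0.979), and all 5 overlapped between the groups. On this measure CD44 had r = 0.776 and UGDH r = 0.675, while HYAL1 had r = 0.167. HAS3, CD44 and UGDH share the low HCT116-CD276KO replicates 2 and 3, the libraries that disfavoured long transcripts, and the part of this in the correlations was not tested.

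Genes beside HAS3 on chromosome 16 did not reach its difference. TANGO6, the nearest tested gene before it, had a log2 fold change of -0.12 (limma adjusted p = 0.512), and CHTF8, which overlaps its end, had -0.08 (adjusted p = 0.486). The sign of TANGO6 turned with quantile normalization and with the length and GC correction, and that of CHTF8 with median-of-ratios scaling. UTP4, a component of ribosome assembly that lies 12572 bases away, fell from 197 ± 11.9 to 156 ± 17.0 TPM (SD, n = 5; log2 fold change -0.34, standard error 0.0795, limma adjusted p = 0.0334). Its call was lost, with adjusted p from 0.0643 to 0.0947, when HCT116-WT replicate 1, 2 or 5 or HCT116-CD276KO replicate 2, 3 or 4 was left out, and with all genes above 0 TPM. The cadherin genes lie on the other side, and their calls held under every alternative tried. CDH1, which encodes E-cadherin and lies 270116 bases away, fell from 42.7 ± 4.92 to 20.4 ± 5.73 TPM (log2 fold change -1.07, standard error 0.1615, limma adjusted p = 0.00311). CDH3, which encodes P-cadherin and lies 378185 bases away, fell from 136 ± 10.9 to 84.4 ± 14.1 TPM (log2 fold change -0.69, standard error 0.1083, limma adjusted p = 0.00371). Of the 10 tested genes next to HAS3 in order, 5 on each side, 3 were called lower, where 4.09% of all tested genes were. The set reaches 744801 bases before HAS3 and 192631 bases behind it. The log2 fold changes of the 10 ran from -1.07 to 0.06, so that none reached the -1.91 of HAS3.

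**Figure D5:**
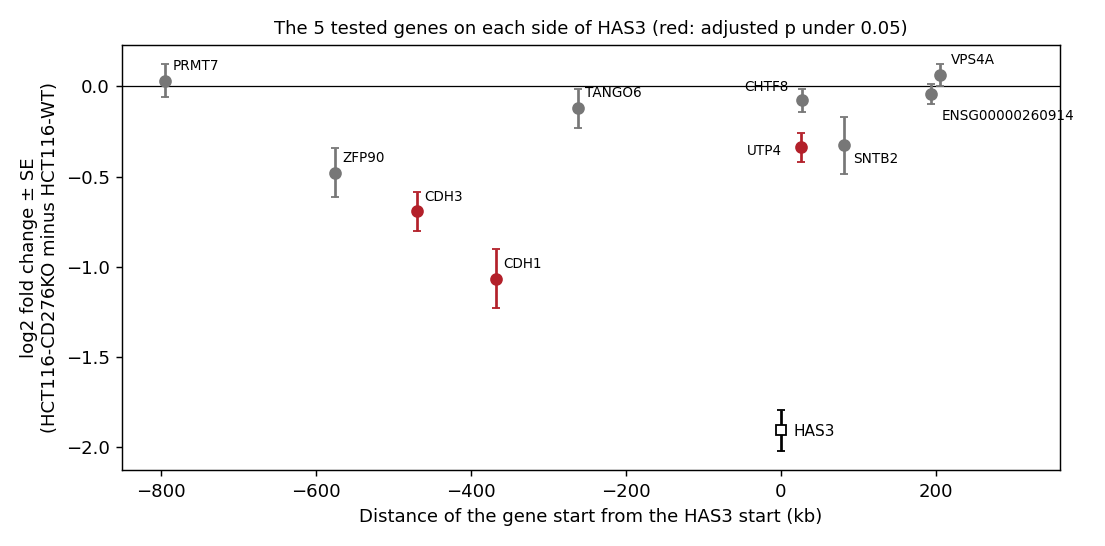
Log2 fold change with its standard error (HCT116-CD276KO minus HCT116-WT) of HAS3 and the 5 tested genes on each side, against the distance of each gene's start from the start of HAS3 in kb, with genes called by limma in red. CDH1 at -1.07 and CDH3 at -0.69 lie before HAS3 and UTP4 at -0.34 behind it, while TANGO6 and CHTF8, the nearest on each side, lie at -0.12 and -0.08.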

How the data were processed

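RNA of 5 HCT116-WT and 5 HCT116-CD276KO cultures was measured. According to the labels and methods, the authors isolated polyadenylated RNA, made strand-specific libraries, mapped single reads to hg38 with STAR 2.5.2b and quantified genes with RSEM 1.3.0 and featureCounts 1.5.1. The authors deposited the values as TPM, which are scaled for transcript length and sum to 1000000 in every library. The program behind the TPM is not given in the sources used here. TPM hold no counts, so the depth of each single library cannot be read from these values, intervals for counting error are not given, and the spread between the cultures is the only measure of precision.

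The 10 genes, the pathway lists and the rule for naming genes were chosen with earlier results of these data known. Named were the 10 genes, CD276, the marker genes, the 10 and 5 genes most like HAS3 by both correlations, the 2 nearest tested genes on each side of HAS3 and called ones among 5 on each side, and, per list, up to 4 called genes and the gene with the highest level. Other names are said to have been chosen after their values were seen. The values of 1 gene within the rule are not reported here.

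Genes were tested where their mean over all libraries reached 1 TPM, on log2(TPM + 1), a pseudocount of 1, with limma 3.58.1 in R 4.3.3 (empirical Bayes with a variance trend, Benjamini-Hochberg over all 13581 genes, threshold 0.05), and the procedure was tested on simulated data. Limma on log TPM replaced the authors' count-based comparison, whose counts were not used here. The length and GC correction subtracted, in each library, a loess curve (span 0.3) of deviations on longest transcript length and on GC content. Positions and overlaps came from GENCODE 44, and promoters from RefSeq. The settings tried beside these were no filter beyond 0 TPM, a filter at a mean of 5 TPM, a pseudocount of 0.1, median-of-ratios scaling, quantile normalization, robust moderation, the replicate block, the length and GC correction and leaving out each library. Other tables used Python 3.11.15, pandas 2.3.3, scipy 1.17.1 and matplotlib 3.10.9.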

Additional observations from a re-analysis of the deposited data

Results flagged for a closer look

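Of 76 groups of 5 libraries over 39 named genes, 2 held a library far from the other 4 by Dixon's ratio, where chance at 1 in 20 gives 3.8. HAS2 in HCT116-WT reached 0.02 TPM in replicate 1, while the other 4 stood at 0, so that the gap was the whole range (ratio 1.0), at a level close to 0. HYAL2 in HCT116-CD276KO was at 39.71 TPM in replicate 2 and at 29.65 to 30.3 TPM in the other 4 (ratio 0.935). That library had a GC correlation of 0.471, and the part of this in its HYAL2 level was not tested.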

How the results depend on the processing

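HAS3 ranged from -1.974 to -1.783 over 19 alternatives, moving by less than its SD pooled over both groups (0.196 on the log2 scale), though with the length and GC correction by more than the SD within HCT116-WT (0.109). HYAL1 passed under its 17 alternatives, from -1.568 to -0.882 with adjusted p from 0.00159 to 0.022. It was not tested at a mean of at least 5 TPM, where 0 members other than HAS3 were called in limma instead of 1. With the length and GC correction 2 were called, since CD44 passed at -0.191, the only one of its 18 alternatives (adjusted p 0.0337 to 0.206) to do so. UGDH changed sign at 0.042 (median-of-ratios), 0.019 (quantile) and 0.018 (length and GC). In the heparan and chondroitin sulfate list 1 gene was called instead of 2 with all genes above 0 TPM, and 1 to 2 without 1 library. Among the HMMR partners 0 to 1 were called without 1 library, the 1 being BRCA1 without HCT116-CD276KO replicate 5. Over all genes 662 calls became 1224 with the length and GC correction, where the split changed to 665 lower and 559 higher, and 343 to 857 without 1 library (345, 376, 421 and 343 without HCT116-WT replicates 1, 2, 4 and 5, and 407 and 375 without HCT116-CD276KO replicates 3 and 4). Past 2-fold as well, 66 became 112 with a pseudocount of 0.1, 40 at a mean of at least 5 TPM and 61 to 74 without 1 library. The alternatives for genes beside HAS3 were added after the data were seen: TANGO6 changed sign at 0.019 (quantile) and 0.027 (length and GC) and CHTF8 at 0.023 (median-of-ratios). C1QBP ranged from -0.004 (without HCT116-CD276KO replicate 3) to 0.055 without 1 library. The causes were not tested.

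The labels number both groups from 1 to 5, but same-numbered libraries correlated in their deviations at only -0.181 to 0.119, and 1 of 10 libraries correlated best with its own number, so the numbers were not taken as pairs. With the replicate block 378 genes were called and HYAL1 had an adjusted p of 0.0220. No member's call changed, while UTP4 was at an adjusted p of 0.0506.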

Other observations

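CHPF2, a chondroitin polymerizing factor picked out after its values were seen, divided the libraries of the clone. It was at 46.63 and 57.01 TPM in HCT116-CD276KO replicates 1 and 2 whereas the other 8 libraries of both groups lay between 5.4 and 9.35 TPM. The log2 fold change was 0.87 (limma adjusted p = 0.409), as the other 3 replicates of the clone lay within or beside the HCT116-WT range. CHPF, its closest relative in the list, showed no such division, with HCT116-CD276KO values of 127 ± 15.1 TPM (SD, n = 5).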
